A study of Mus musculus with 1 sample.

Results

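Integrins are the cell surface receptors through which glia hold on to the extracellular matrix and, in leukocytes, to other cells. The transcripts described here encode their alpha and beta chains and the alpha, beta and gamma chains of the laminins, which are matrix ligands of several integrins. Genes were taken by symbol, as Itga or Itgb followed by the number or letter of the chain, or as Lama, Lamb or Lamc followed by a number. This gave 37 genes among the 23282 rows of the table, with 18 integrin alpha, 8 integrin beta, 5 laminin alpha, 3 laminin beta and 3 laminin gamma chains. The rule reads symbols and no measured value. The 5 look-alike symbols that the rule leaves out (Itgb1bp1, Itgbl1, Itgb2l, Itgb3bp and Itgb1bp2) encode binding partners and relatives.

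The study examined inhibition of the kinase SGK1 in mixed glia, which were cultured from mouse ventral midbrain (VM). The data were 1 RNA-seq library from the control group, which the study describes as treated with the vehicle DMSO. The culture came from outbred ICR(CD-1) mice at postnatal day 5, had no genetic alteration stated in its labels, and was grown in serum on poly-D-lysine. Inhibitor-treated cultures were not analysed here, so no groups were compared, and with 1 library no difference between genes below has a replicate check, an error or a p-value. Whether the culture pooled several pups was not stated.

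An integrin is a dimer of 1 alpha and 1 beta chain, and an alpha chain without its beta partner is usually kept inside the cell. Beta 1 joins many alpha chains and serves attachment to laminin, collagen and fibronectin. Beta 2 is the leukocyte beta chain, carried in the brain by microglia, and alpha V pairs with several beta chains and recognises the tripeptide RGD in fibronectin, vitronectin and osteopontin. A laminin is a trimer with 1 chain of each type, secreted into the basement membrane. In the brain, laminins surround the vessels and lie under the pia, where astrocyte endfeet bind them.

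The library's values summed to 27569507 normalised reads, and the number of sequenced reads behind them is unknown. Genes were called detected from a value of 10 upwards. The labelled identity, VM-derived glia, was compared with marker genes. All 10 microglial markers were detected, among them C1qa at 32619 and Csf1r at 31413, and with Tmem119 at 984. All 8 astrocyte markers were detected, among them Gfap at 17222, Aldoc at 5805, Aqp4 at 5049 and S100b at 604. All 8 mesenchymal markers were detected as well, among them Acta2 at 26499, Col1a1 at 16915, Tagln at 11771 and Lum at 455. All 6 oligodendrocyte markers passed, among them Mbp at 10966, Cnp at 3937, Mag at 1359, Mog at 135 and Sox10 at 48. Of 6 neuronal markers 4 passed, with Stmn2 at 3802, Tubb3 at 124, Snap25 at 86, Rbfox3 at 20, Syt1 at 6 and Slc17a6 listed at 0. Of 6 endothelial markers 4 passed, with Flt1 at 2427, Kdr at 119, Cdh5 at 43, Pecam1 at 33, Cldn5 at 3 and Tek listed at 0. The library therefore held RNA of microglial, astrocytic, mesenchymal and oligodendroglial genes, and of some neuronal and endothelial markers. The source cells of a subunit were not separated. In bulk RNA, fewer cells of a type and less RNA per cell cannot be told apart.

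Of the 37 subunits, 34 were detected, which is 91.9%, against 67.2% of all rows. None was listed at 0, against 5075 of all 23282 rows. The 3 under the minimum were Itga10 and Itgae at 6 and Itgb7 at 7, and the nearest above it were Lamc3 at 12 and Itga2 at 14. At the other end, 15 subunits had a value of 1000 or more. The lowest of these 15, Itga4 at 1047, ranked 4826 among all 23282 rows by deposited value. The 5 with the largest deposited values, Itgam, Itgb5, Itgb1, Itgb2 and Itga5, held 67.3% of the summed subunit value, and all subunits together held 0.478% of the library's sum.

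**Figure D1:**
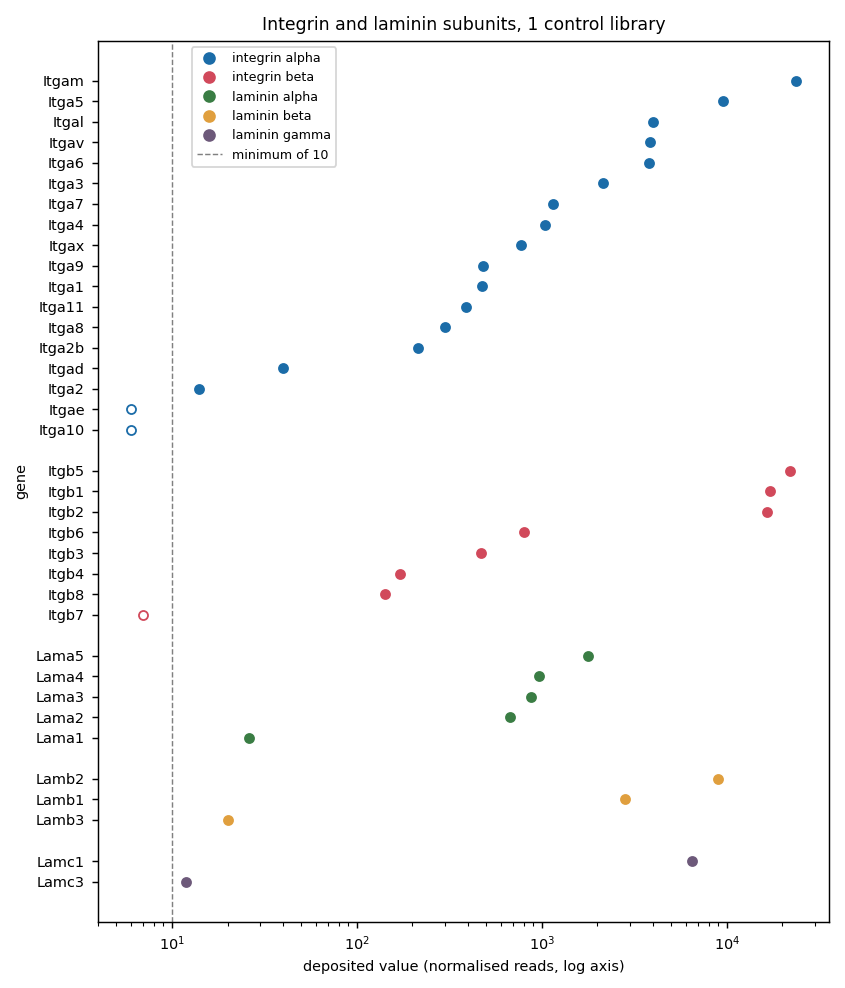
Deposited value of 36 of the 37 subunits (normalised reads, log axis) in the 1 control library, with 1 point per gene, sorted within chain type. Open points are the 3 genes under the dashed minimum of 10, and Itgam, at 23713, is the rightmost point.

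Because long transcripts collect more reads, genes were ordered below by level, defined as normalised reads per kb of annotated exon, and values as deposited are named as values. On that scale the 37 subunits had a median level of 79.6, or 81.1 over those detected. Detected genes of all kinds had a median of 102. Levels of 16 of the 37 were above the median of all detected genes, including 12 of 26 integrins and 4 of 11 laminins. Exons of 12 subunits share bases with other gene models, on their own strand for Itga1, Itga10, Itgam and Itgad, and on the opposite strand for Itga4, Itga7, Itga8, Itgad, Itgav, Itgb4, Lama2, Lama3 and Lamc3. The subunits were thus spread along the whole range, with a small group far up. Itgb5, Itgb2, Itgam, Itgb1, Itga5 and Lamb2 lay in the highest 10% of detected genes and held 85.4% of the summed subunit level.

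**Figure D2:**
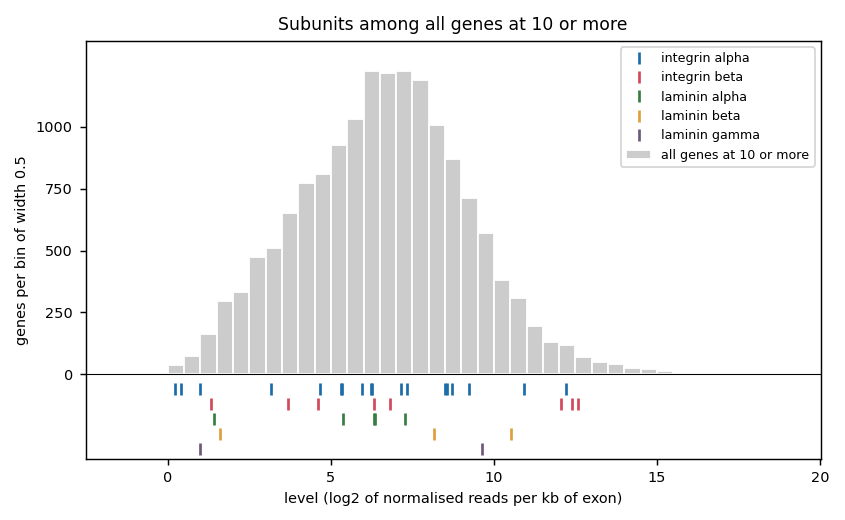
Level of all detected genes (grey bars, genes per bin of width 0.5 on the log2 scale of normalised reads per kb of exon), with a tick for each of 36 subunits under the bars, in 1 row per chain type. Ticks run from the lowest levels to the upper tail, where Itgb5, Itgb2, Itgam and Itgb1 sit.

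The sequence upstream of 3 subunits is shown for the beta 5 and beta 2 receptors described next. Itgb5 had the highest level of all subunits, while Itgam and Itgax are neighbours on chromosome 7 that share the partner Itgb2 and differed widely in level. Each run is the 250 bases before the RefSeq start of the gene (GRCm38.p6, plus strand), at chr7:128062390-128062639 for Itgam, chr7:128129300-128129549 for Itgax and chr16:33829415-33829664 for Itgb5. Capitals mark GAGGAA, the core letters bound by the myeloid factor PU.1, and GGGCGG, the GC box bound by SP1, each on either strand (TTCCTC and CCGCCC on the other).
Itgam: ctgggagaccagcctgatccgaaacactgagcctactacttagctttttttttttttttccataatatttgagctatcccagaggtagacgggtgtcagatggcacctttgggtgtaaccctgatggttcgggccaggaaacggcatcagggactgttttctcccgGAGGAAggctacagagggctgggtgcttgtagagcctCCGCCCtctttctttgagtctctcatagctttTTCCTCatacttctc
Itgax: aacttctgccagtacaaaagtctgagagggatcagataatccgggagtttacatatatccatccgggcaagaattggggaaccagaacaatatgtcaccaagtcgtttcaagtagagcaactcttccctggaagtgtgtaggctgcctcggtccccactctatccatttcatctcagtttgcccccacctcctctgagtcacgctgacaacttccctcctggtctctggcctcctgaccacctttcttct
Itgb5: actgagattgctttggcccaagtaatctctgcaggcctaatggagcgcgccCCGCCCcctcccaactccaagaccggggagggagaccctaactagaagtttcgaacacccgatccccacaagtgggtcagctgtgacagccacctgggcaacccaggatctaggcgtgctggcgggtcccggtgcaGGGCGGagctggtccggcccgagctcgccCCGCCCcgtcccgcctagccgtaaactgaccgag
The Itgam window held GAGGAA at 2 positions, with first bases 84 and 15 bases before the start, and 1 GC box. The Itgax window held neither motif, and the Itgb5 window held 3 GC boxes and no GAGGAA. Among all 32851 RefSeq windows of this length, 23.3% held GAGGAA and 32.7% held GGGCGG. Windows were found for 23 of the 37 subunits, in 26 windows, of which 13 held GAGGAA, 9 held GGGCGG and 0 held TATAAA, which 12.4% of all windows held. The occurrences overlapped no other searched motif in the 3 windows shown. No window was found for Itgb2, Itgal, Itgad or Itgae, so the leukocyte receptors were only partly covered. GAGGAA was also present upstream of Itgav, Itgb1 and Lama5, which are outside the leukocyte receptors. Such a match is a description of letters and not of binding.

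The leukocyte receptors were the most abundant class of alpha chain, with 60.8% of the summed alpha level. Itgam encodes CD11b, the alpha chain of complement receptor 3, and had a value of 23713 and a level of 4720, above 97.9% of detected genes. It lies at chromosome 7, 128062640 to 128118491, in GRCm38. Of its 5024 exonic bases, 3450 are also annotated to Gm49368 on the same strand, a model with no row in the table. Its beta chain Itgb2 (CD18, chromosome 10, 77530252 to 77565708) had a value of 16418 and a level of 5379. Itgam was the higher of the pair as deposited, but per length Itgb2 was 1.14 times Itgam.

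The other beta 2 partners were lower. Itgal, the alpha chain of LFA-1, which binds ICAM molecules, had a value of 4000 and a level of 609. Itgax encodes CD11c, a dendritic cell and activated microglia marker, and had a value of 772 and a level of 161. Itgad, for CD11d, had a value of 40 and a level of 8.87, and its exons overlap annotations on both strands. Itgam thus exceeded Itgal by 7.75-fold, Itgax by 29.4-fold and Itgad by 532-fold in level. These genes lie in line on the plus strand of chromosome 7, with 11.1 kb between Itgam and Itgax, 3.72 kb between Itgax and Itgad, and 728 kb between Itgal and Itgam.

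Levels of the 4 beta 2 partners summed to 5498, of which Itgam made up 85.8%. That sum was 1.02 times the level of Itgb2, and without division by length the ratio was 1.74. Of the 18 genes in the list of integrin ligands other than laminins, 16 were detected, with Madcam1 at 3 and Fgb listed at 0. Of those bound by leukocyte integrins, Icam1 had a value of 3867, Vcam1 of 1806, Icam2 of 28 and complement C3 of 11519. Of 5 lymphocyte markers only Cd3d, at 202, was detected, with Ncr1 at 4, Cd3e at 2 and Cd8a at 1. Itgae, which marks intraepithelial T cells, was at 6 and its partner Itgb7 at 7.

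**Figure D3:**
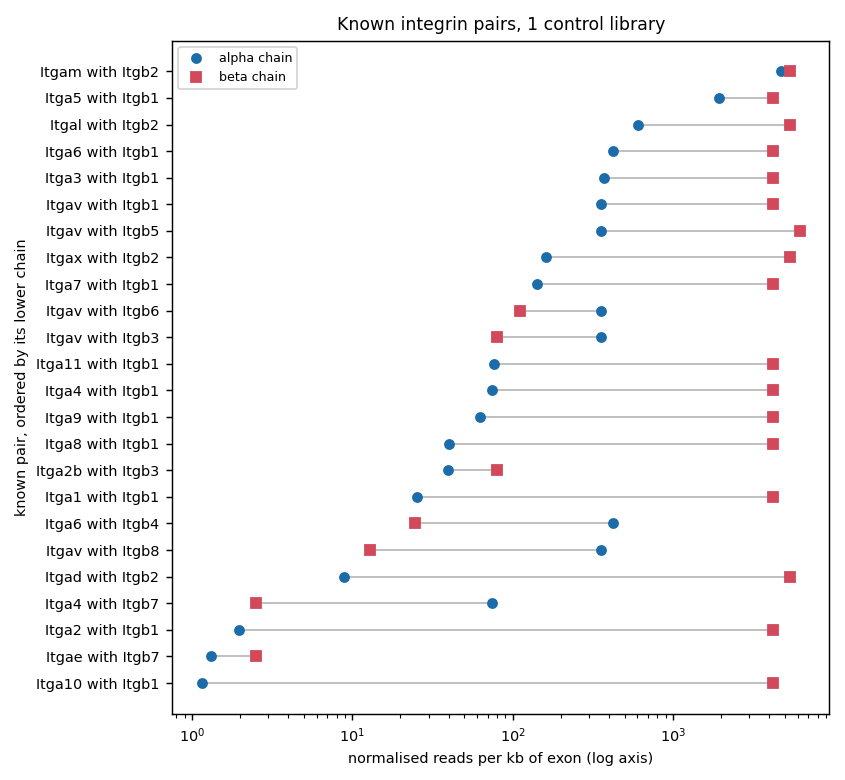
Level (normalised reads per kb of exon, log axis) of the alpha chain (circle) and beta chain (square) of the 24 known integrin pairs, ordered by the lower chain. In 19 pairs the square lies to the right, and Itgam with Itgb2 is the top pair, at 4720 and 5379.

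Paired as heterodimers, 21 of the 24 known integrins had both chains detected. The 3 exceptions were Itga10 with Itgb1, Itgae with Itgb7 and Itga4 with Itgb7. The beta chain had the higher level in 19 pairs. Without division by length 1 pair changed order, Itgam with Itgb2. Ordered by the lower chain of each pair, Itgam with Itgb2 came first at 4720, then Itga5 with Itgb1 at 1928 and Itgal with Itgb2 at 609. With the longest transcript as length, Itga6 with Itgb1 took the place of Itgal with Itgb2, at 885 against 766. These are transcript levels, and dimers on the cell surface were not measured. Pairs share chains and are not independent.

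Beta 1 was the chain with most partners. Itgb1 (chromosome 8, 128685654 to 128733200) had a value of 17232 and a level of 4222, above each of its 12 alpha partners. Itga5, the fibronectin receptor chain, was the highest of these at a value of 9510 and a level of 1928, and it made up 54.9% of the partners' summed level. Its main ligand fibronectin, Fn1, had a value of 95749. The summed level of the 12 partners was 3508, or 0.831 times that of Itgb1, a ratio that rose above 1 with other treatments of length, to 1.34 as deposited and to 1.03 with the longest transcript.

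The 3 laminin-binding alpha chains were all detected and held 10.4% of the summed alpha level. Itga6 had a value of 3816 and a level of 423, Itga3 a value of 2135 and a level of 374, and Itga7, a muscle and perivascular laminin receptor, a value of 1155 and a level of 143. Itga6 and Itga3 were close, at a ratio of 1.13, but this became 2.02 when the longest transcript replaced the union of exons. Itgb4, which joins Itga6 in the hemidesmosomes of epithelia, was at a value of 172 and a level of 24.5, so Itga6 exceeded it 17.2-fold, or 32.0-fold by the longest transcript, and Itgb1 exceeded it 172-fold. Of 6 epithelial markers 1 was detected, with Cdh1 at 66, Krt5 and Krt8 at 5, Krt14 at 1, and Epcam and Krt18 listed at 0.

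Collagen-binding alpha chains were low, at 1.16% of the summed alpha level for 4 genes. Itga11, a fibroblast collagen receptor, had a value of 391 and a level of 76.2, while Itga1 had a value of 473 and a level of 25.4. Itga2 was at a value of 14 and Itga10, a cartilage receptor, at 6. Itga1 and Itga2 are neighbours on the minus strand of chromosome 13. Of their ligands, Col1a2 had a value of 8468 and Col3a1 of 7901, beside Col1a1 above.

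The alpha 4 and alpha 9 chains bind VCAM1, osteopontin and tenascin C. Itga4 had a value of 1047 and a level of 74.9, and Itga9 a value of 481 and a level of 62.5. Exons of Itga4 share 1124 bases with Cerkl on the opposite strand, which was itself at 53. Osteopontin, Spp1, had a value of 324671, and tenascin C, Tnc, of 6751.

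Alpha V receptors bind RGD, and Itgb5 had the highest level of the 5 beta chains that join Itgav, at 58.2% of their sum, followed by Itgb1, which it exceeded 1.46-fold. Itgb5 (chromosome 16, 33829665 to 33949338) is a vitronectin receptor chain that also serves uptake of dying cells, and its level of 6168 was the highest of the 37 subunits, above 98.5% of detected genes. It had a value of 21914. Itgav itself had a value of 3851 and a level of 358, so Itgb5 exceeded its known alpha partner 17.2-fold. The list of known dimers holds no other alpha chain for beta 5. Without division by length, Itgb5 was 5.69 times Itgav.

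Of the other alpha V partners, Itgb6, an epithelial chain that activates latent TGF-beta, had a value of 797 and a level of 112. Itgb3, known from platelets, osteoclasts and macrophages, had a value of 470 and a level of 79.6. Itgb8, through which astrocytes and other cells activate latent TGF-beta, had a value of 142 and a level of 12.8, so Itgb6 exceeded it 8.73-fold and Itgb5 480-fold. All 6 genes of the latent TGF-beta list were detected, with Tgfb1 at 4537, its latent binding protein Ltbp1 at 1968, Tgfb3 at 868, the microglial anchor Nrros at 820, Tgfb2 at 803 and Lrrc32 at 311. The 5 beta chains summed to 29.6 times Itgav, a ratio that was 10.5 as deposited and 21 with the longest transcript. Without Itgb1, which has other partners, the 4 remaining beta chains summed to a level of 6372, or 17.8 times Itgav, and Itgb5 was 96.8% of it. The ligand vitronectin, Vtn, had a value of 45, and the bridging protein Mfge8 of 2235.

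Itga8, an RGD receptor chain of mesenchymal cells, had a value of 298 and a level of 40.4. Itga2b, the platelet chain that pairs with Itgb3, had a value of 215 and a level of 39.4. Of 5 megakaryocyte and platelet markers 2 were detected, with Gp5 at 2, Gp1ba at 11, and Gp9 listed at 0. Gp1bb was at 209, but 1902 of its exonic bases are also annotated to Sept5 on the same strand. Platelet RNA as a source of Itga2b was not tested.

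**Figure D4:**
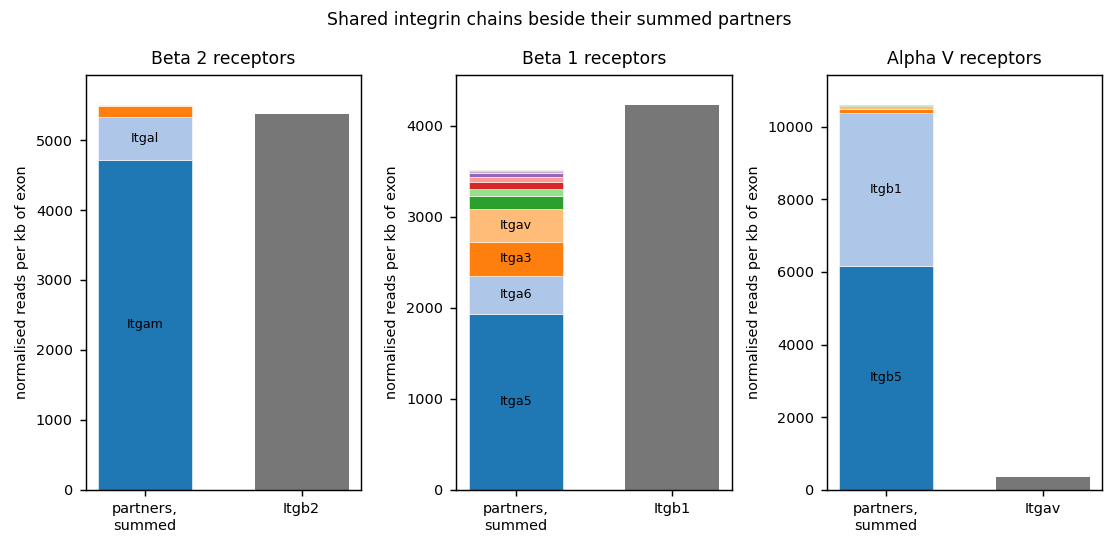
Summed level of the partners (stacked, in normalised reads per kb of exon, labelled where above 5% of the stack) beside the shared chain (grey) for beta 2, beta 1 and alpha V receptors, each panel with its own axis from 0. The columns are of similar height for beta 2 on this scale, at 5498 and 5379, whereas Itgav, at 358, is far below its partners, at 10595.

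All 21 genes that link integrins to the cytoskeleton were detected. Flna, filamin A, had the highest level at 2635, followed by integrin-linked kinase, Ilk, at 2340 and the integrin activator talin 1, Tln1, at 1960. Of the 2744 exonic bases of Ilk, however, 2106 are shared with Taf10 on the opposite strand. The strand setting of the counts is not known, so the place of Ilk in this order is uncertain. Kindlins bind the beta tail beside talin: the blood cell kindlin Fermt3 was at a value of 7162 and a level of 1238, the widely expressed Fermt2 at 3119 and a level of 601, and the epithelial Fermt1 lowest of the list at 81 and 14.2. Among the parvins, which join integrin-linked kinase to actin, the leukocyte form Parvg had a level of 1011, Parvb of 382 and Parva of 261. Of these linkers, 17 of 21 had a level above the median detected gene.

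Laminins were measured in all 11 chains, and all were detected, with values from 12 for Lamc3 to 8940 for Lamb2. Lamc1 (chromosome 1, 153218922 to 153332786), the gamma chain of most laminins, had a value of 6512 and a level of 787. Lamc3 was far lower, with a value of 12 and a level of 1.97.

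Among beta chains, Lamb2 (chromosome 9, 108479736 to 108490530), the beta chain of mature vascular and synaptic basement membranes, was highest, with a value of 8940 and a level of 1470. Lamb1 had a value of 2817 and a level of 284. Lamb2 exceeded Lamb1 5.17-fold in level, or 3.26-fold with the longest transcript as length. Lamb3, the epithelial beta chain, had a value of 20 and a level of 3.02.

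The alpha chains decide which integrins bind a laminin, and none was at the level of Lamb2 or Lamc1. Lama5 was highest at a value of 1777 and a level of 156. Lama3, an epithelial alpha chain, had a value of 879 and a level of 81.8, Lama4, a vascular one, 971 and 80.5, and Lama2, found in muscle and in the glial basement membrane, 673 and 41.2. Lama5 exceeded Lama4 1.94-fold, but with the longest transcript as length the ratio was 0.972. Lama1, a chain of early embryonic and pial membranes, was at a value of 26 and a level of 2.69. Exons of Lama2, Lama3 and Lamc3 overlap annotated antisense transcripts, and the strand setting of the counts is not known.

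**Figure D5:**
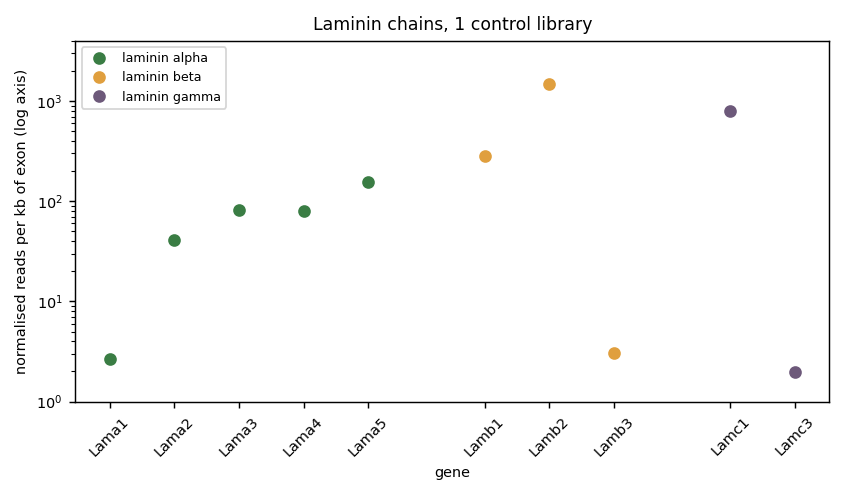
Level of 10 of the 11 laminin chains (normalised reads per kb of exon, log axis), coloured by chain type. Lamb2 and Lamc1 are the highest of their types, and the highest alpha chain with exons as length, Lama5, lies at 156, below both.

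Summed by chain type, laminin levels were 362 for alpha and 1757 for beta, so the beta sum was 4.85 times the alpha sum. Without division by length the excess was smaller, with deposited values summing to 4326 for alpha and 11777 for beta. The level of Lamc1 alone was above the alpha sum. All 14 known trimers in the list had their 3 chains detected. The alpha chain was the lowest of the 3 in 10 trimers, and Lamc3 in 3. Those 10 hold the same 5 alpha chains, each with Lamb1 or Lamb2 and with Lamc1, so the trimers are not independent. By the lowest chain, laminin 511 and laminin 521 (Lama5 with Lamb1 or Lamb2 and Lamc1) were highest at 156, laminins 311 and 321, which join Lama3 to Lamc1, were at 81.8, laminins 411 and 421 at 80.5, and laminin 111 at 2.69. With the longest transcript as length, laminins 411 and 421 came first at 161, ahead of 511 and 521 at 156.

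All 13 genes for other basement membrane components and laminin receptors were detected. Type IV collagen chains Col4a1 and Col4a2 had values of 8934 and 6501, and perlecan, Hspg2, of 4314. Nidogens, which tie laminin to collagen IV, were at 2879 for Nid2 and 1316 for Nid1. Dystroglycan, Dag1, the main laminin receptor of astrocyte endfeet outside the integrin family, had a value of 3705 and a level of 583, and agrin a value of 2072. Dag1 was 1.38 times Itga6 in level, but 0.971 times as deposited and 0.739 times with the longest transcript. Col4a4 and Col4a3 had values of 60 and 41 and are chains of specialised membranes such as that of the glomerulus. The list had a median level of 223, and 9 of its 13 genes were above the median detected gene, whose level was 102.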

How the data were processed

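RNA of 1 control culture (1.3 µg total RNA per the labels) was sequenced using a SMARTer mRNA library kit. In the study's methods, reads were trimmed under quality 20, mapped to GRCm38/mm10 with STAR and counted on exons of RefSeq genes with HTSeq-count. FPKM, a measure per exon length and sequencing depth, was calculated there as well. The submitters' processing notes also list TopHat and edgeR, without a role. The values deposited are a score per gene in whole numbers, which the authors call normalised read counts. Which of these steps gave them is not stated. Because the normalisation is not given in the sources used here, no count model or interval was used. The minimum of 10 was chosen and not derived from a noise level. Tool versions, strand setting and treatment of multi-mapped reads were not given either.

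Each value was divided by the union of exons of the gene in GENCODE M21 (GRCm38), which is not the annotation that was counted on. The division assumes that the deposited values are not already per length. A total of 22900 of 23282 rows (98.4%) were matched by symbol or RefSeq synonym, including all 37 subunits. Exons of 12 subunits, and of 35 of the 117 genes in the other lists, overlap another annotated gene. The minimum of 10, set for values on the read-count scale, was compared with 1, 3 and 100, and the length with none and with the longest transcript. Known dimers (24) and trimers (14) came from textbook lists. The rule names all subunits, and of other lists, those with up to 6 genes in full and otherwise the 3 highest by deposited value (linkers also by level), the lowest, those at 0 and genes that a sentence on a subunit turns on. Some genes that this rule selects, 1 subunit among them, are not reported here. Subunits and lists were chosen with earlier results of these data known. Functions for exon length, percentiles and motif search were tested on simulated data. Upstream sequences came from RefSeq (GRCm38.p6). Analyses used Python 3.11.15 and pandas 2.3.3.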

Additional observations from a re-analysis of the deposited data

How the results depend on the processing

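Of 21 planned values recomputed under an alternative, 17 stayed within 1.5 times the value reported. The 6 orders between genes given below are not in this count, and some of their ratios moved further than 1.5 times. Both chains were detected for 24 dimers at a minimum of 1 or 3 and for 19 at 100, and subunits detected numbered 37, 37 and 29. Trimers with all chains detected dropped from 14 to 8 at a minimum of 100, because Lama1, Lamb3 and Lamc3 lie under it. Without division by length, 23 subunits were above the median detected gene, and 17 were with the longest transcript as length. The minimum also moved this count, from 16 to 21 at a minimum of 1 and to 12 at 100. The beta 1 partners summed to 1.34 times Itgb1 as deposited and to 1.03 times with the longest transcript, so their order against Itgb1 turned in both. For beta 2 the ratio moved from 1.02 to 1.74 and 1.09, and for alpha V from 29.6 to 10.5 and 21. Of 6 orders between genes recomputed after seeing the data, 3 turned: Lama5 over Lama4 (0.972) and Itgal with Itgb2 over Itga6 with Itgb1 (0.865) with the longest transcript, and Dag1 over Itga6 with it (0.739) and as deposited (0.971). The shifts in ratios and in orders come from the length used, since the values are the same. No paired analysis was possible because 1 library was analysed. With 1 library and an unknown number of reads, small differences between genes and values near 10 cannot be separated from sampling or culture variation.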
